A study of Mus musculus with 21 samples.

Results

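The lysosomal genes described here are 33 rows of a count table of 47069 mouse genes, chosen by symbol: 10 peptidases, 7 glycosidases, 5 proteins of lipid handling and the lysosomal lumen, the lysozyme gene Lyz2, 7 membrane proteins and the transcription factors Tfeb, Tfe3 and Mitf. Each symbol matched 1 row, and each of the 33 passed the filter on low counts. The genes were measured by RNA sequencing in bone marrow-derived macrophages of C57BL/6 mice, grown for 5 days in M-CSF-conditioned medium and then held for 36 h with or without a cytokine. There were 7 groups of 3 libraries: 3 of wild-type cells (unstimulated, given IL-33, given IL-4), 2 of cells labelled ST2-/- (unstimulated, given IL-33) and 2 of cells labelled Cx3cr1CRExGata3fl/fl, here called floxed-labelled (unstimulated, given IL-33). All groups share the strain, the M-CSF culture and the 36 h. ST2 is the IL-33 receptor chain encoded by Il1rl1, and the second genotype carries a floxed Gata3 with a Cre recombinase named for the Cx3cr1 gene. The cytokine doses and the age and sex of the mice were not given in the sources used here, nor whether the libraries of a group came from separate mice, so the p-values rest on library-to-library spread that may be technical.

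Lysosomes are the acidic organelles in which macrophages break down engulfed and endocytosed material. Their hydrolases are made in the endoplasmic reticulum, most are tagged with mannose 6-phosphate and delivered through endosomes, and they work at the low pH kept by a proton pump, the V-ATPase. TFEB, TFE3 and MITF are related factors that bind short E-box sequences near many lysosomal genes, and their entry into the nucleus is set by mTORC1 at the lysosome surface, so their mRNA level is not a measure of their activity. Macrophages hold many lysosomes and secrete part of their content, lysozyme among it.

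Depth ranged from 32.6 to 48.7 M counted reads per library, and the lowest count of any of the 33 genes in any library was 1945 reads. No library stood apart: the lowest correlation of a library with another of its group was 0.987, and libraries of 1 group differed by more than sampling noise. Levels are given as CPM, read counts relative to the scaled library size. The library-to-library coefficient of variation of a gene within a group was 3.66% at the median of 231 gene and group pairs and 14.1% at most. Counts over whole genes gave no check of the 2 deletions: Il1rl1 stood at 15.7 CPM in unstimulated wild-type and 17.4 CPM in ST2-/- labelled cells, and Gata3 at 0.147 CPM in wild-type and 0.246 CPM in floxed-labelled cells. Each of 10 macrophage core markers, Adgre1 and Csf1r among them, was detected in every group. Arg1, which encodes arginase 1, rose from 0.381 CPM to 373 CPM with IL-33 and 1332 CPM with IL-4 in wild-type cells.

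The lysosomal genes spanned a wide range of levels. They are compared per length, as CPM per kilobase of all annotated exons (RPKM scale), which includes exons of minor transcripts. In unstimulated wild-type cells Lyz2 ranked first of 14422 genes at 16210. Psap, the precursor of the saposins that help sphingolipid hydrolases, ranked 4th at 5799. The peptidases Ctss, Ctsd and Ctsb ranked 7th, 8th and 10th, at 3566, 3543 and 2744. Lamp1, the major glycoprotein of the lysosome membrane, ranked 23rd at 1283 and Cd68, a LAMP-related macrophage protein, 32nd at 1040. At the low end, Mcoln1, the lysosomal calcium channel, stood at 10.03 and ranked 4357th, and Mitf, Tfe3 and Tfeb stood at 15.1, 17.1 and 17.4. Counts of the 33 genes summed to 9.32 ± 0.111% of all counted reads in unstimulated wild-type cells, 9.81 ± 0.036% with IL-33 and 9.16 ± 0.253% with IL-4 (SD, n = 3 each). The 3 libraries with IL-33 lay above the 3 without cytokine, whereas those with IL-4 overlapped them. Lyz2 alone held a mean of 2.17% of counted reads in unstimulated wild-type cells, 2.89% under IL-33 and 0.962% under IL-4. Its rise under IL-33 and its fall under IL-4 were each larger than the change of the sum. The remaining genes together thus held a smaller mean share under IL-33, and a larger one under IL-4, than in unstimulated cells.

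Over the 7 groups most of these genes moved little. The ratio of the highest to the lowest group mean was under 1.5 for 23 of the 33 genes and under 1.2 for 10. It was at least 2 for 4 genes: 3.19 for Ctsl, 2.998 for Lyz2, 2.99 for Ctsc and 2.13 for Tfeb. Ctsd, the aspartic protease cathepsin D, had the smallest ratio, 1.09; its exons share 34.4% of their bases with Gm49369 on the same strand, so its count may hold reads of both. Ctsa (17.4%), Ctsb and Hexa (12.8% each) also share exon bases with other genes, on the opposite strand, and whether the counting used strand is not given in the sources used here.

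**Figure D1:**
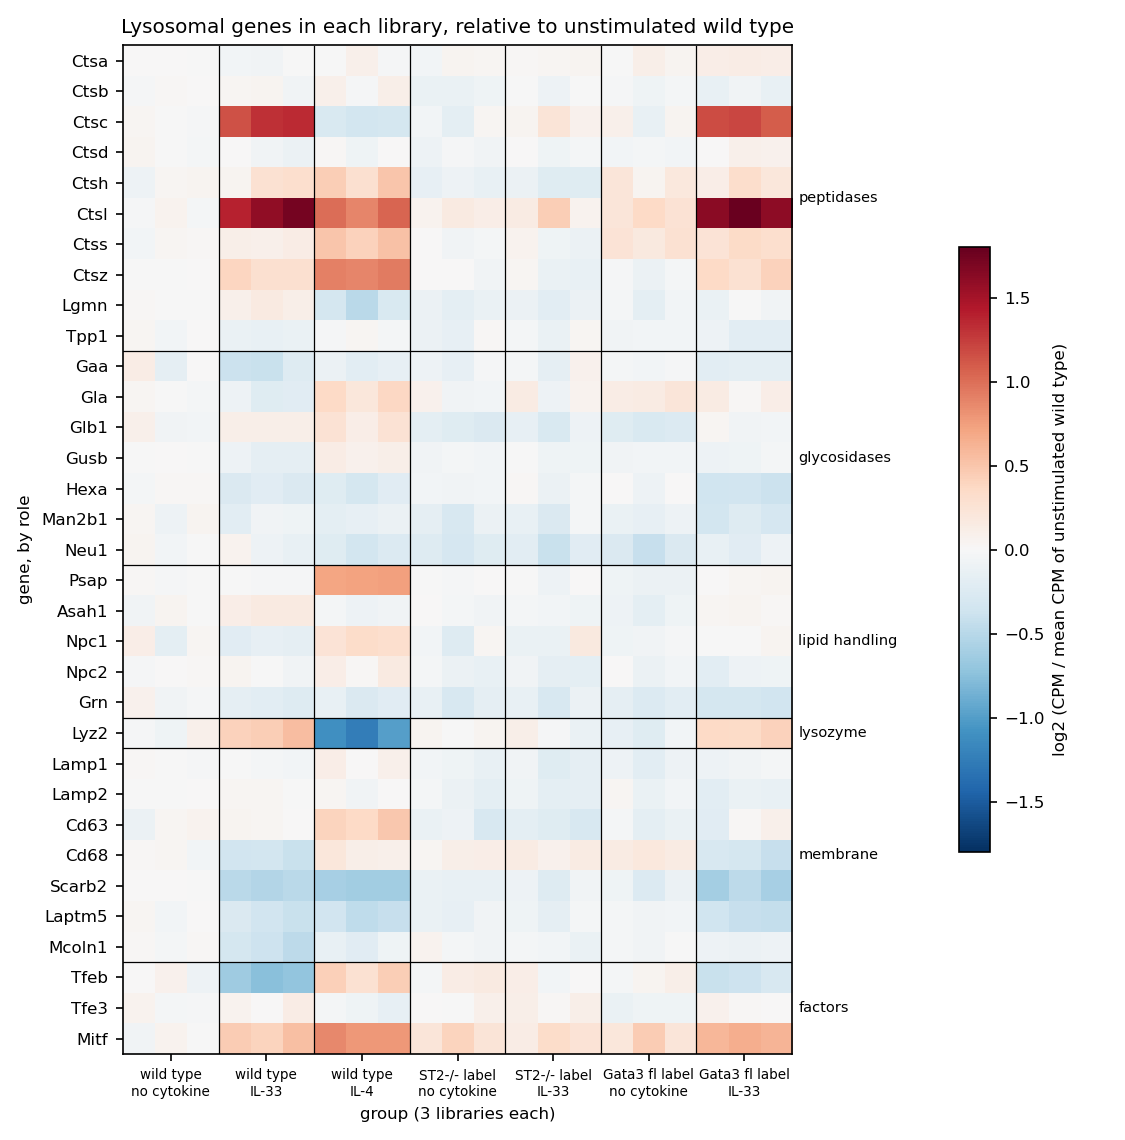
Each column is 1 library and each row 1 gene, ordered by role; colour is the log2 ratio of the CPM to the mean of the 3 unstimulated wild-type libraries. Ctsc and Ctsl stand out in wild-type and floxed-labelled cells with IL-33, and Ctsl, Lyz2, Ctsz, Mitf and Psap in wild-type cells with IL-4, whereas the ST2-/- labelled libraries with IL-33 resemble those without it.

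The 3 transcription factors moved apart from each other in wild-type cells. Tfeb fell with IL-33 and rose with IL-4, Mitf rose with both, and no change of Tfe3 passed the test with either cytokine. Tfeb (ENSMUSG00000023990, chromosome 17, 47737030 to 47792419, GRCm38) stood at 99.0, 104.5 and 92.6 CPM in the unstimulated wild-type libraries, at 63.1, 58.4 and 60.3 CPM with IL-33 and at 133.5, 119 and 134 CPM with IL-4. The 3 groups did not overlap, with IL-33 lowest and IL-4 highest. The level was 1.63-fold lower with IL-33 (log2 -0.70 ± 0.066, adjusted p = 1.58e-08) and 1.31-fold higher with IL-4 (log2 0.39 ± 0.065, adjusted p = 3.23e-05), and IL-33 and IL-4 differed by 2.13-fold (log2 -1.09 ± 0.066, adjusted p = 6.69e-12). Mitf (ENSMUSG00000035158, chromosome 6, 97807052 to 98021349) stood at 89.5, 98.0 and 93.7 CPM without cytokine, 128, 123 and 137 CPM with IL-33 and 171, 161 and 161 CPM with IL-4. Again no groups overlapped, here in the order no cytokine, IL-33, IL-4. The rise was 1.38-fold with IL-33 (log2 0.46 ± 0.068, adjusted p = 9.68e-06) and 1.75-fold with IL-4 (log2 0.81 ± 0.068, adjusted p = 1.27e-09). Tfe3 (ENSMUSG00000000134, chromosome X, 7762560 to 7775202) held 166, 155 and 156 CPM without cytokine, 166, 160 and 174 CPM with IL-33 and 155, 151 and 143 CPM with IL-4. The libraries with either cytokine overlapped the unstimulated ones, and the changes were log2 0.07 ± 0.046 with IL-33 (adjusted p = 0.258) and -0.085 ± 0.046 with IL-4 (adjusted p = 0.137). Tfec, the fourth gene of this family and not among the 33, rose from 24.8 to 83.1 CPM with IL-33, 3.36-fold, and to 51.2 CPM with IL-4, 2.07-fold.

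**Figure D2:**
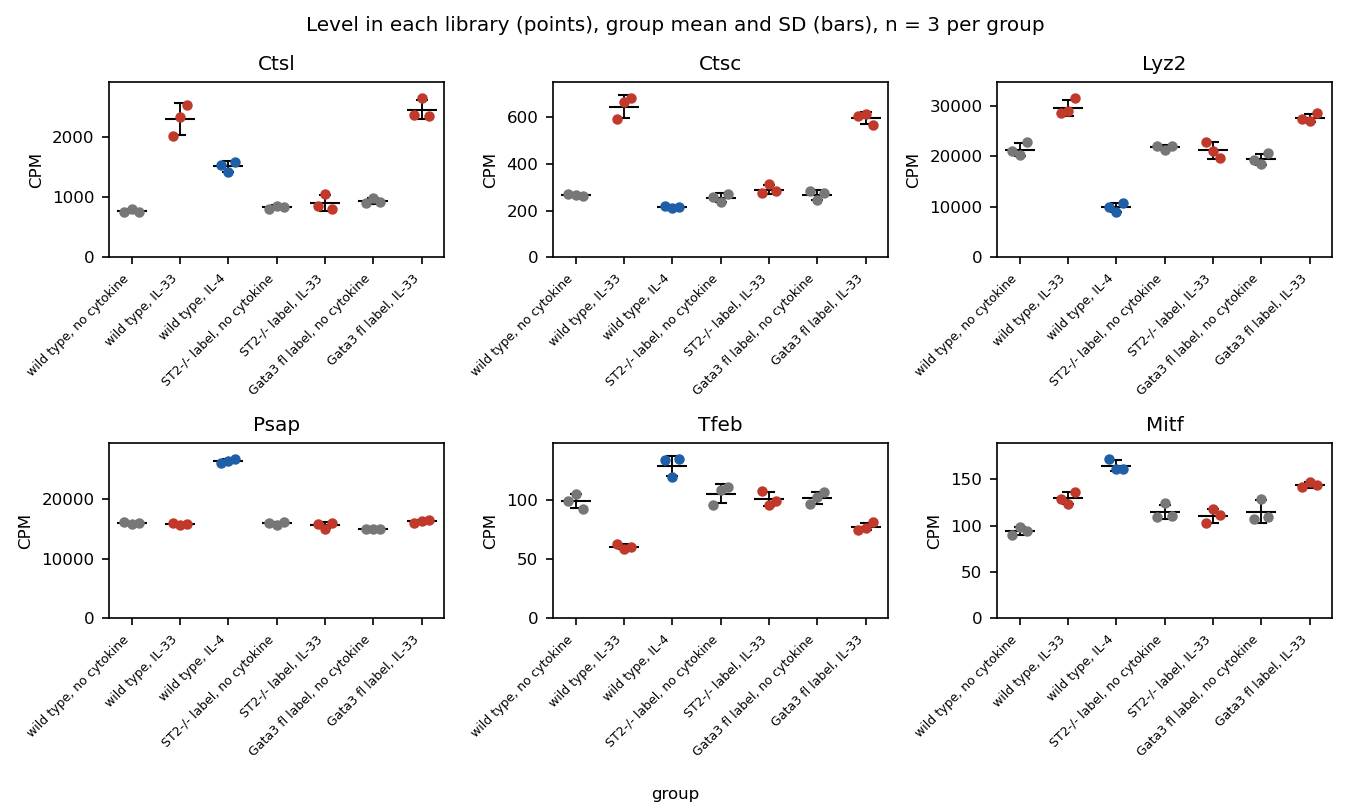
CPM of 6 genes in every library (points; grey without cytokine, red with IL-33, blue with IL-4), with the group mean and SD (bars, n = 3) and axes from 0. Tfeb is lowest in wild-type cells with IL-33, Mitf and Psap are highest with IL-4, and Ctsl and Ctsc are high with IL-33 in wild-type and floxed-labelled but not in ST2-/- labelled cells.

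The E-box core that these factors bind, CACGTG, was looked up in the RefSeq promoter windows of the genes, 250 bases before to 50 after each annotated start (GRCm38.p6), because 2 of the factors changed. A window was listed for 29 of the 33 genes; there was none for Asah1, Ctsb, Ctsh and Npc1. CACGTG is its own reverse complement, so 1 search covers both strands. It was present in a window of 9 of the 29 genes (31.0%): Ctsa, Ctsd, Ctsl, Gaa, Gla, Glb1, Lamp1, Lgmn and Mcoln1, and in 8.09% of 27025 genes with a window. The longer TCACGTGA, which contains it, was found for 4 of the 29 (13.8%), Ctsa, Ctsd, Gla and Mcoln1, and for 1.13% of all genes. TCATGTGA, searched on both strands, was found for Ctss, Gla, Grn and Tpp1 (13.8%; 1.15% of all genes). A match describes these letters and not a bound site. The 5 stretches below were chosen as the genes holding TCACGTGA and the gene with most copies of CACGTG, Lamp1, which holds 4 within 73 bases before its start. Each reads 5′ to 3′ on the strand of its gene, with CACGTG in capitals. They lie at chr2:164833749-164833772 (plus strand, Ctsa), chr7:142387908-142387937 (minus, Ctsd), chr8:3500462-3500491 (plus, Mcoln1), chr8:13159088-13159160 (plus, Lamp1) and chrX:134601215-134601244 (minus, Gla). They lie before the RefSeq start, but those of Ctsa, Ctsd, Mcoln1 and Gla meet an exon annotated by GENCODE, and for Ctsa, Ctsd and Mcoln1 they lie within the bounds of the GENCODE gene.
Ctsa: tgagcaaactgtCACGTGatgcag
Ctsd: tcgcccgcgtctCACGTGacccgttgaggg
Mcoln1: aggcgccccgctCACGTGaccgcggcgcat
Lamp1: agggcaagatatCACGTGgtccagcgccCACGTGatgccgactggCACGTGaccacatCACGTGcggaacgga
Gla: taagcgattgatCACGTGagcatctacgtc
Of the 9 genes with CACGTG, Ctsl rose with IL-33 and Gaa, Gla and Mcoln1 fell. The other 24, among them the 4 without a window, had 6 higher and 8 lower (18.5% and 16.9% of all genes). With IL-4, Ctsl, Gla and Glb1 of the 9 rose and Lgmn and Mcoln1 fell. Of the other 24, 10 rose and 8 fell with IL-4 (25.1% and 22.5% of all genes). Any part of the factors in these changes was not tested. Ctsa and Ctsd, which hold TCACGTGA, passed the test with neither cytokine, and Lamp1, with 4 copies, had changes of log2 -0.034 ± 0.042 with IL-33 and 0.072 ± 0.042 with IL-4 that did not pass it.

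IL-33 changed the wild-type lysosomal genes in both directions. Of the 33 genes 18 were called at an adjusted p under 0.05, 7 higher and 11 lower (18.5% and 16.9% of all genes), or 54.5%, beside 35.4% of all 14473 genes tested and 47.9% of the 9063 genes that reached 10 CPM in 3 libraries. The median log2 change of the 33 was -0.034, against -0.00090 for all genes. Among the 10 peptidases 4 rose (Ctsl, Ctsc, Ctsz and Ctsh) and Tpp1 fell; among the 7 glycosidases 4 fell (Gaa, Hexa, Gla and Gusb) and none rose; among the 7 membrane proteins 4 fell (Scarb2, Mcoln1, Cd68 and Laptm5) and none rose. In 21 of the 33 genes the libraries of the 2 groups did not overlap (46.4% of all genes). A further analysis with upper-quartile scaling, which moved the median of all genes by -0.047, called 5 higher and 14 lower. Asah1 and Ctsh were not called under it (adjusted p = 0.0541 and 0.0702). Ctsh was also lost without the first unstimulated or the second or the third IL-33 library (adjusted p from 0.101 to 0.118), and Gla without the first or the second unstimulated or the second or the third IL-33 library (0.0657 to 0.104). Tpp1 was lost without the first or the third unstimulated library, without any 1 of the IL-33 libraries (0.0799 to 0.156) and with no filter on low counts (0.102).

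The largest rises with IL-33 were in the cysteine peptidases Ctsl and Ctsc, which were also the only 2 of the 33 called with a change of at least 2-fold (6.72% of all genes). Ctsl (ENSMUSG00000021477, chromosome 13, 64359337 to 64370890, minus strand), cathepsin L, an endopeptidase, stood at 756, 802 and 747 CPM in the unstimulated wild-type libraries and at 2011, 2331 and 2529 CPM with IL-33. Every library with IL-33 lay above every library without it, a 2.98-fold rise (log2 1.58 ± 0.084, adjusted p = 1.72e-12). Ctsc (ENSMUSG00000030560, chromosome 7, 88278085 to 88310888), cathepsin C, which removes dipeptides and activates serine proteases of granules, stood at 273, 266 and 263 CPM and with IL-33 at 590.1, 664 and 680.2 CPM. These groups too were well apart, with a 2.41-fold rise (log2 1.27 ± 0.066, adjusted p = 1.06e-12). Exons of Ctsl share 26.8% of their bases with annotated genes on either strand, so part of its count could belong to them, whereas Ctsc shares none. Ctsz, cathepsin Z, rose 1.25-fold (log2 0.32 ± 0.046, adjusted p = 7.81e-06) and Ctsh, an aminopeptidase, 1.16-fold (log2 0.22 ± 0.070, adjusted p = 0.0197).

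Lyz2, which encodes the lysozyme of macrophages and neutrophils that cleaves bacterial cell walls (ENSMUSG00000069516, chromosome 10, 117277331 to 117282321, minus strand), rose with IL-33 and fell with IL-4. It held 20990, 20200 and 22810 CPM without cytokine, 28570, 28900 and 31490 CPM with IL-33 and 9923, 9024 and 10720 CPM with IL-4. The 3 groups did not overlap. It was 1.39-fold higher with IL-33 (log2 0.48 ± 0.061, adjusted p = 1.61e-06) and 2.16-fold lower with IL-4 (log2 -1.11 ± 0.061, adjusted p = 1.26e-12), and its share of all counted reads went from 2.17% to 2.89% and to 0.962%. Its near copy Lyz1 had 127 to 568 reads per library and at most 0.0483% of the reads of both genes. In bulk RNA, fewer cells of a type and less RNA per cell cannot be told apart.

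Markers of other blood cells moved with the IL-33 groups. Of 8 monocyte markers 7 rose with IL-33 in wild-type cells, and the 8 summed to 274 to 326 CPM without and 771 to 1252 CPM with it. Of 12 neutrophil markers 9 rose, with sums of 125 to 137 and 385 to 533 CPM, most of it Csf3r and Mmp8; the neutrophil granule genes Camp and Retnlg stood at 0.585 and 0.206 CPM with IL-33. The 10 macrophage core markers summed to 9850 to 10190 CPM without and 11850 to 13000 CPM with IL-33. Of 9 dendritic cell markers 5 rose, with sums of 52.8 to 101 and 139 to 221 CPM. No marker of these 4 lists was at 0 in a group. The platelet and megakaryocyte gene Pf4 rose from 17.7 to 185.5 CPM, Ppbp from 0.712 to 5.17 CPM and Itga2b from 0.477 to 1.58 CPM; in floxed-labelled cells Pf4 went from 22.0 to 142.5 CPM. Of 9 mast cell and basophil markers 6 passed the filter, of which 3 rose and 1 fell, with sums of 7.42 to 11.9 CPM without and 3.32 to 7.11 CPM with IL-33 and with Mcpt4 and Tpsb2 at 0. Of 9 osteoclast markers 7 passed it, of which 4 rose and 2 fell, with sums of 256 to 318 and 336 to 429 CPM and with Calcr and Oscar at 0 with IL-33. Of the eosinophil markers 1 of 3 tested rose, of the lymphocyte markers 2 of 7 fell and of the stromal markers 1 of 4 fell, with sums of 24.6 to 27.8, 144.5 to 160.1 and 1.35 to 2.63 CPM with IL-33, the stromal Lepr and Pdgfra being at 0. The part of such cells in the rise of Lyz2 and Ctsc was not tested.

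The falls with IL-33 were smaller than the rises of Ctsl and Ctsc. Scarb2 (ENSMUSG00000029426, chromosome 5, 92441314 to 92506833, minus strand) encodes LIMP-2, the membrane receptor that carries glucocerebrosidase to the lysosome. Its libraries stood at 223.5, 225 and 222 CPM without cytokine, 160, 156 and 159 CPM with IL-33 and 148, 145 and 145 CPM with IL-4. Both cytokine groups lay below every unstimulated library: 1.41-fold with IL-33 (log2 -0.50 ± 0.049, adjusted p = 4.19e-08) and 1.53-fold with IL-4 (log2 -0.61 ± 0.050, adjusted p = 6.76e-10). Mcoln1 (ENSMUSG00000004567, chromosome 8, 3500457 to 3515232), the calcium channel whose CACGTG stretch is printed above, held 76.7, 73.9 and 76.7 CPM, 60.6, 58.3 and 54.8 CPM with IL-33 and 69.4, 66.1 and 71.8 CPM with IL-4. IL-33 libraries were lowest, IL-4 libraries intermediate, and no groups overlapped (log2 -0.39 ± 0.049, adjusted p = 1.26e-06 with IL-33; log2 -0.13 ± 0.048, adjusted p = 0.0276 with IL-4, a call lost without the first or the third unstimulated library or the second IL-4 library, adjusted p = 0.0754, 0.0811 and 0.063, or with no filter on low counts, 0.0872). Laptm5, an adaptor of lysosomal sorting in blood cells, fell 1.26-fold with IL-33 and 1.32-fold with IL-4 (adjusted p = 2.61e-06 and 6.87e-08).

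Gaa (ENSMUSG00000025579, chromosome 11, 119267887 to 119285454), acid alpha-glucosidase, which degrades glycogen, held 180.4, 146.5 and 165 CPM without cytokine and 125, 124 and 139.9 CPM with IL-33. The unstimulated libraries were spread widely, but all lay above those with IL-33 (log2 -0.34 ± 0.067, adjusted p = 0.000363). With IL-4 it held 152, 143 and 148 CPM, which overlapped the unstimulated libraries. Grn (ENSMUSG00000034708, chromosome 11, 102430315 to 102437048), the precursor of granulins, held 2816, 2551 and 2639 CPM, 2396, 2331 and 2272 CPM with IL-33 and 2430, 2236 and 2316 CPM with IL-4. Both cytokine groups lay below the unstimulated libraries, by small amounts (log2 -0.19 ± 0.050, adjusted p = 0.00414; log2 -0.20 ± 0.050, adjusted p = 0.00242). Hexa, a subunit of beta-hexosaminidase, fell 1.18-fold with IL-33 and 1.19-fold with IL-4.

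**Figure D3:**
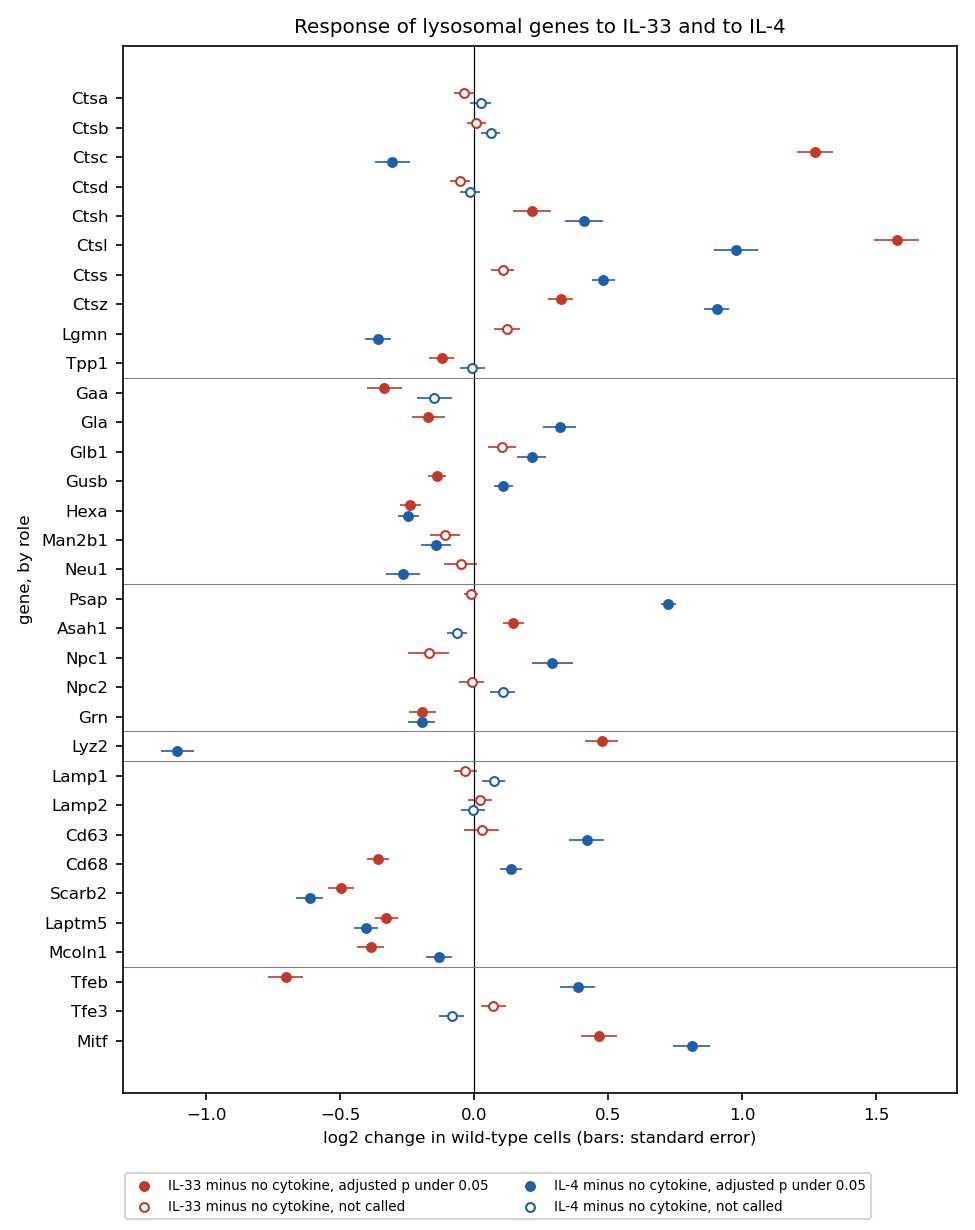
log2 change of each of the 33 genes in wild-type cells, with IL-33 (red) and with IL-4 (blue), each against the same unstimulated libraries; bars are standard errors and filled points passed an adjusted p under 0.05. Ctsl lies farthest right (1.58) and Lyz2 with IL-4 farthest left (-1.11), and Tfeb, Ctsc, Lyz2, Cd68, Gla and Gusb have filled points on opposite sides of 0.

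IL-4 called 23 of the 33 genes, 13 higher and 10 lower (25.1% and 22.5% of all genes), or 69.7%, beside 47.6% of all genes and 61.5% of those that reached 10 CPM. Their median change was 0.024, against 0.0048 for all genes, and the libraries did not overlap for 24 of the 33 (56.1% of all genes). The rises included the sphingolipid cofactor Psap, the peptidases Ctsl, Ctsz, Ctss and Ctsh, the tetraspanin Cd63 and the cholesterol exporter Npc1, and the falls Lyz2, Scarb2, Laptm5, Lgmn and Ctsc. Lyz2 was the single gene of the 33 called with a change of at least 2-fold (11.1% of all genes). Under upper-quartile scaling, which moved the median of all genes by -0.042, 11 were higher and 13 lower. Cd68 and Gusb were not called under it (adjusted p = 0.073 and 0.138). Cd68 was also lost without the third unstimulated or the first IL-4 library (adjusted p = 0.061 and 0.142) and Gusb without the first or the third IL-4 library (0.136 and 0.0794), and both with no filter on low counts (0.0502 and 0.207). Man2b1 was lost without the first or the third unstimulated or the first or the second IL-4 library (0.0505 to 0.149), and Mcoln1 is described above.

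Psap (ENSMUSG00000004207, chromosome 10, 60277627 to 60302597) had the smallest p-value of the IL-4 response among the 33. It held 16140, 15710 and 15890 CPM in unstimulated wild-type libraries, 15910, 15660 and 15730 CPM with IL-33 and 25950, 26300 and 26580 CPM with IL-4. The IL-4 libraries lay far above both other groups, which overlapped each other. The rise was 1.65-fold (log2 0.72 ± 0.027, adjusted p = 2.1e-15), whereas the change with IL-33 was log2 -0.013 ± 0.027 (adjusted p = 0.757). The summed share of Psap, Asah1, Npc1, Npc2 and Grn in all counted reads rose with it, from 2.14 ± 0.030% to 3.03 ± 0.030%. Npc1, the membrane partner in cholesterol export, rose 1.22-fold (log2 0.29 ± 0.076, adjusted p = 0.00313), and its soluble partner Npc2 had a change of log2 0.11 ± 0.047 that did not pass the test (adjusted p = 0.0702).

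Among the peptidases, Ctsz rose 1.87-fold with IL-4 (log2 0.91 ± 0.047, adjusted p = 3.75e-13) and Ctsl 1.97-fold (log2 0.98 ± 0.083, adjusted p = 1.51e-09). The Ctsl libraries held 1537, 1412 and 1588 CPM, between the unstimulated and the IL-33 libraries and overlapping neither. Ctss, cathepsin S, which trims the invariant chain of MHC class II, rose 1.396-fold (log2 0.48 ± 0.043, adjusted p = 3.84e-09), while with IL-33 its change was log2 0.11 ± 0.043 (adjusted p = 0.0596). Ctsc went the other way from IL-33: its IL-4 libraries held 222, 212 and 214.5 CPM, below every unstimulated library (log2 -0.31 ± 0.065, adjusted p = 0.000438). Lgmn, the asparaginyl endopeptidase that processes other cathepsins, fell 1.28-fold (log2 -0.36 ± 0.049, adjusted p = 2.36e-06).

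The glycosidases split with IL-4. Gla, Glb1 and Gusb rose and Hexa, Neu1 and Man2b1 fell. Gla (ENSMUSG00000031266, chromosome X, 134588149 to 134601125, minus strand), alpha-galactosidase A, held 208, 203 and 198 CPM without cytokine, 191, 174 and 175 CPM with IL-33 and 261, 234 and 264 CPM with IL-4. IL-33 libraries were lowest and IL-4 libraries highest, with no overlap (log2 -0.17 ± 0.061, adjusted p = 0.0328; log2 0.32 ± 0.061, adjusted p = 0.000155). Glb1, beta-galactosidase (ENSMUSG00000045594, chromosome 9, 114401076 to 114474898), held 174.5, 157 and 158 CPM, 176, 175 and 175 CPM with IL-33 and 195.5, 178 and 194.5 CPM with IL-4. Its IL-4 libraries lay above the unstimulated ones (log2 0.21 ± 0.053, adjusted p = 0.00193); those with IL-33 lay just above the highest unstimulated library, without passing the test (log2 0.10 ± 0.053, adjusted p = 0.145). Neu1, the lysosomal sialidase (ENSMUSG00000007038, chromosome 17, 34931253 to 34935953), held 174, 161 and 167 CPM, 176, 157 and 152 CPM with IL-33 and 144, 133 and 141 CPM with IL-4. The IL-4 libraries lay below all others of the wild type (log2 -0.27 ± 0.062, adjusted p = 0.00116), and those with IL-33 overlapped the unstimulated ones.

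Markers of other cell types moved with IL-4 as well. Of 9 dendritic cell markers 3 rose and 1 fell, and the 9 summed to 52.8 to 101 CPM without and 864 to 1270 CPM with IL-4, of which Itgax alone held 988 CPM on average. Of 9 osteoclast markers 7 passed the low-count filter, of which 6 rose and 1 fell; the 9 summed to 256 to 318 CPM without and 1405 to 1546 CPM with IL-4, with Calcr at 0 and Oscar at 0.0161 CPM on average. The 10 lymphocyte markers summed to 177 to 204 CPM without and 335 to 346 CPM with IL-4, nearly all of it Il7r, with 1 marker higher and 1 lower. Of 8 monocyte markers 1 rose and 4 fell (sums of 274 to 326 CPM without and 343 to 549 CPM with IL-4), and of 12 neutrophil markers 3 rose and 7 fell (125 to 137 and 207 to 218 CPM), none of either being at 0. The macrophage core markers summed to 6280 to 6423 CPM with IL-4, 2 of the 10 being higher and 7 lower. Of 3 eosinophil markers tested 1 rose and 1 fell. The eosinophil sums were 9.51 to 14.6 CPM without and 30.7 to 41.2 CPM with IL-4. Of 6 mast cell and basophil markers tested 1 fell, and of 3 erythroid and megakaryocyte markers tested 1 rose and 1 fell. No stromal marker was called. The part of such cells in the changes of the lysosomal genes, the fall of Lyz2 included, was not tested.

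IL-33 and IL-4 share their unstimulated libraries, so the 2 responses are given side by side and compared through the direct test between the stimulated groups. In that test 21 of the 33 genes were called (63.6%), 7 higher and 14 lower with IL-33. The share was 39.9% of all genes (19.2% higher and 20.7% lower) and 51.6% of those that reached 10 CPM. Lyz2 was 2.998-fold and Ctsc 2.99-fold higher with IL-33 (adjusted p = 5.48e-15 and 1.53e-14), and Ctsl 1.51-fold. Tfeb was 2.13-fold, Psap 1.67-fold and Ctsz 1.498-fold lower with IL-33 than with IL-4. Against no cytokine, Ctsh, Ctsl, Ctsz and Mitf were higher with each cytokine, and Grn, Hexa, Laptm5, Mcoln1 and Scarb2 lower with each. Ctsc and Lyz2 were higher with IL-33 and lower with IL-4, and Cd68, Gla, Gusb and Tfeb the reverse. Cd68 fell 1.28-fold with IL-33, from 1323, 1338 and 1262 CPM to 1028, 1035 and 995 CPM, and held 1508, 1412 and 1395 CPM with IL-4. Its IL-33 libraries were below and its IL-4 libraries above every unstimulated library (log2 -0.36 ± 0.042, adjusted p = 4.53e-07; log2 0.14 ± 0.042, adjusted p = 0.00951), although the rise was lost under settings named above. Ctsa, Ctsb, Ctsd, Lamp1, Lamp2, Npc2 and Tfe3 passed the test against no cytokine with neither cytokine, their changes lying between log2 -0.085 and 0.11. Of these, Tfe3 was called higher and Lamp1 lower with IL-33 in the direct test. Tfe3 held 160 to 174 CPM with IL-33 and 143 to 155 CPM with IL-4, without overlap. Its direct call held in every alternative run that kept the gene and with each library left out. The direct calls of Gaa and Lamp1 were lost without 5 of the 6 libraries each (adjusted p from 0.0568 to 0.302; Gaa held without the third IL-33 and Lamp1 without the second IL-4 library), that of Ctsh without the first IL-33 or the first or the third IL-4 library (0.132 to 0.202) and that of Neu1 without the first IL-33 library (0.0698). Lamp1 was also lost with DESeq2, with no filter, with the filter of 10 CPM and in a fit on the groups compared alone (0.0775, 0.146, 0.0642 and 0.0692), and Ctsh in the last of these (0.077).

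Other genes of the lysosome, from lists drawn up by function, were counted in the same fit. Most V-ATPase subunits differed between the cytokines: in the direct test 15 of 18 were lower with IL-33 (20.7% of all genes). Against no cytokine, 1 of 18 rose and 8 fell with IL-33 (18.5% and 16.9% of all genes). With IL-4 12 rose and none fell (25.1% and 22.5% of all genes). Their median changes were log2 -0.068 with IL-33 and 0.24 with IL-4. Atp6v0d2, a subunit form abundant in osteoclasts, rose 6.25-fold with IL-4, from 139 to 866.5 CPM (log2 2.64 ± 0.10, adjusted p = 3.33e-15), and Atp6v0a1 2.42-fold, from 403 to 976 CPM. With IL-33 the catalytic subunit gene Atp6v1a fell 1.43-fold, from 1033 to 723.5 CPM, and Tcirg1, another membrane subunit, 1.37-fold. Atp6v0d2 is also among the osteoclast markers above, as are Ctsk and Acp5 of the next list.

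Of 40 other hydrolases measured, 12 rose and 15 fell with IL-33 (18.5% and 16.9% of all genes). With IL-4 12 of them rose and 12 fell (25.1% and 22.5% of all genes). Plbd1, a phospholipase B-like protein, rose 6.89-fold with IL-33, from 4.95 to 34.2 CPM (log2 2.78 ± 0.21, adjusted p = 6.16e-10). Ctsk, the collagen-degrading cathepsin K, rose 4.37-fold with IL-4, from 21.9 to 95.7 CPM, and Acp5, the tartrate-resistant acid phosphatase, 1.84-fold with IL-33 and 4.098-fold with IL-4. Sgsh, the heparan sulfate sulfamidase, fell 1.78-fold with IL-33 and 2.97-fold with IL-4. Of 30 other membrane proteins, 7 rose and 12 fell with IL-33, and 9 rose and 12 fell with IL-4, beside the same shares of all genes. Among the ion channels, Mcoln3 fell 3.49-fold and Tpcn1 2.09-fold with IL-33, and 2.23-fold and 2.03-fold with IL-4, whereas Tpcn2 rose 2.37-fold with IL-4. Cd164, a sialomucin of endosomes and lysosomes, rose 2.52-fold with IL-33, from 67.0 to 169 CPM.

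Genes of delivery, nutrient sensing and autophagy fell more often than they rose with IL-33. In delivery to the lysosome 3 of 22 rose and 10 fell; the mannose 6-phosphate receptor genes Igf2r and M6pr were among those that rose (1.56-fold and 1.27-fold), and Vps39, of a tethering complex for fusion, fell 1.48-fold. The list of nutrient sensing at the lysosome holds the system that acts on TFEB and its relatives, and also Tfec itself. Of its 20 genes 2 rose and 12 fell. The rises were those of Tfec, given above, and Ppp3r1 (1.22-fold). Rragd, a GTPase that recruits mTORC1, fell 1.98-fold and Fnip2, a folliculin partner, 1.72-fold. In autophagy 3 of 22 rose and 13 fell, with Sqstm1, the cargo receptor p62, 1.46-fold lower and Atg5 1.34-fold higher. With IL-4 the counts were 6 higher and 9 lower, 5 and 7, and 2 and 10 in these 3 lists; Ulk1 and Ulk2, the kinases that start autophagy, fell 1.599-fold and 1.64-fold. Of the cystatin-type inhibitors of cathepsins 3 were measured: Cst3 fell 1.35-fold with IL-33, and Cst7 and Cstb rose 3.54-fold and 1.48-fold with IL-4. Among all genes tested, 18.5% rose and 16.9% fell with IL-33, and 25.1% rose and 22.5% fell with IL-4.

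**Figure D4:**
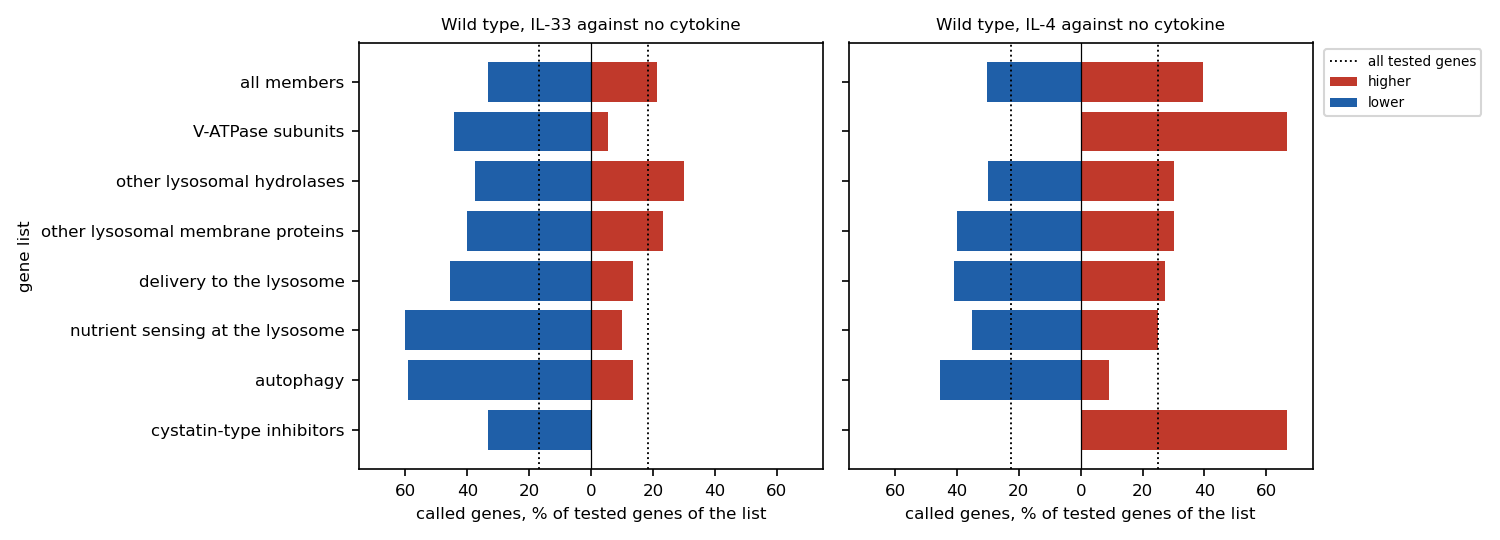
For the 33 genes (all members) and 7 lists of other lysosome-related genes, bars give the share of tested genes called higher (red, to the right) and lower (blue, to the left) in wild-type cells, and dotted lines the same shares of all 14473 genes tested. With IL-4 no V-ATPase subunit is in the blue bar, and with IL-33 the nutrient sensing and autophagy lists have the longest blue bars.

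In cells labelled ST2-/-, IL-33 called none of the 33 genes and none of all genes tested (0.00%). At an unadjusted p under 0.05, edgeR gave 1 of the 33, Ctsc, and 507 of 14473 genes; DESeq2 and limma-voom also called 0 genes, and edgeR with no filter on low counts called 70 genes and none of the 33. The changes of the 33 lay between log2 -0.063 and 0.18, with a median of 0.0031. Ctsl held 805, 859 and 838 CPM in the ST2-/- labelled libraries without cytokine and 848, 1044 and 806 CPM with IL-33, and these overlapped (log2 0.11 ± 0.082, adjusted p = 1). Ctsc held 259, 236 and 273 CPM without and 275, 312 and 283 CPM with IL-33. These libraries did not overlap but lay within a few CPM of each other at the boundary (log2 0.18 ± 0.065, adjusted p = 1); Ctsc was the 1 gene of the 33 without overlap, beside 6.96% of all genes. Lyz2, at 22130, 21300 and 21980 and then 22940, 20990 and 19650 CPM, Tfeb, at 96.0, 109 and 111 and then 108, 95.7 and 99.1 CPM, and Scarb2, at 205.5, 203 and 203 and then 209, 190.5 and 213 CPM, overlapped between the groups. The monocyte and neutrophil markers summed to 305 to 416 and 146 to 155 CPM with IL-33 in these cells, beside 324 to 332 and 138 to 160 CPM without, and no marker of either list was called.

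The response to IL-33 differed between ST2-/- labelled and wild-type cells for 14 of the 33 genes (42.4%), 8 above and 6 below the wild-type response, by the test of the difference itself, beside 22.7% of all genes (10.6% above and 12.1% below) and 33.7% of those that reached 10 CPM. The differences were largest for Ctsl (log2 -1.47 ± 0.12, adjusted p = 4.17e-09), Ctsc (log2 -1.09 ± 0.092, adjusted p = 1.06e-08) and Tfeb (log2 0.64 ± 0.092, adjusted p = 1.73e-05), where a negative value is a response below that of the wild type. The other 11 were Mitf, Lyz2, Scarb2, Cd68, Gaa, Ctsz, Laptm5, Mcoln1, Hexa, Grn and Asah1. For each of the 14 the wild-type change was called in the opposite direction from the difference. The difference subtracts that wild-type change, and no ST2-/- labelled change was called, so the opposite direction is not a separate result. Grn was lost without 6 of the 12 libraries (adjusted p from 0.0507 to 0.106) and Asah1 without 8 (0.0571 to 0.0985), both among these without the first or the third unstimulated and the third IL-33 wild-type library. In a fit on the groups compared alone both were lost (0.0683 and 0.0774), and Asah1 also under upper-quartile scaling (0.104) and with no filter (0.144). Between the stimulated groups, 23 of the 33 genes differed (69.7%), 8 higher and 15 lower in ST2-/- labelled cells. The share was 37.0% of all genes (17.9% higher and 19.1% lower) and 49.5% of those that reached 10 CPM. Ctsl was 2.55-fold and Ctsc 2.22-fold lower and Tfeb 1.67-fold higher. Under upper-quartile scaling the split of the 33 was 12 higher and 12 lower. Lamp1 and Npc2 were lost without the first or the second wild-type or the second or the third ST2-/- labelled library (adjusted p from 0.0803 to 0.181), Neu1 without the first wild-type or the second ST2-/- labelled one (0.0962 and 0.0887), Mitf without the third wild-type or the first ST2-/- labelled one (0.0604 and 0.071), Gla without the first ST2-/- labelled one (0.0504) and Ctss without the third (0.069). Upper-quartile scaling lost Ctss, Npc2 and Lamp1 (0.0708, 0.2 and 0.173), a fit on the groups compared alone Ctss, Neu1, Npc2 and Lamp1 (0.0571, 0.0638, 0.112 and 0.108), no filter Npc2 and Lamp1 (0.061 and 0.0512) and the filter of 10 CPM Npc2 (0.0615). Of the 8 monocyte markers all were lower in ST2-/- labelled cells with IL-33 than in wild-type cells with it, and of the 12 neutrophil markers 9 were lower and 1 higher.

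Cells labelled Cx3cr1CRExGata3fl/fl responded to IL-33 in 17 of the 33 genes, 11 higher and 6 lower (51.5%), beside 33.4% of all genes (17.1% higher and 16.3% lower) and 44.4% of those that reached 10 CPM. Ctsl held 893, 989 and 921 CPM without cytokine and 2362, 2634 and 2345 CPM with IL-33, and Ctsc 285, 244 and 276 and then 606, 614 and 567.5 CPM. For both genes every library with IL-33 was above every library without it (log2 1.39 ± 0.083, adjusted p = 1.61e-11; log2 1.15 ± 0.066, adjusted p = 6.72e-12). Lyz2 held 19300, 18400 and 20630 CPM and 27420, 27060 and 28530 CPM with IL-33, without overlap (log2 0.51 ± 0.061, adjusted p = 7.27e-07), while Scarb2 fell from 212.5, 189 and 207 to 146, 160.5 and 148 CPM (log2 -0.42 ± 0.049, adjusted p = 5.87e-07). Cd68 had the largest fall (log2 -0.50 ± 0.042, adjusted p = 3.43e-09). Psap rose slightly, from 15010, 14860 and 14860 to 16010, 16360 and 16440 CPM, again without overlap (log2 0.13 ± 0.027, adjusted p = 0.000845). Upper-quartile scaling turned the split to 7 higher and 11 lower and lost Ctsd, Neu1, Asah1 and Tfe3 (adjusted p = 0.256, 0.151, 0.0547 and 0.18), the same 4 being lost with no filter (0.0785, 0.0516, 0.0521 and 0.175), and of all called genes the higher share went from 51.1% to 40.1%. Ctsd, Neu1, Tfe3 and Man2b1 were also lost when single libraries were left out (adjusted p from 0.0575 to 0.208): Ctsd and Neu1 without the second unstimulated, Tfe3 and Man2b1 without the first unstimulated, and Man2b1 also without the third unstimulated library, and among those with IL-33 without the first (Neu1, Tfe3, Man2b1), the second (Ctsd) or the third (Ctsd, Neu1, Man2b1); Tfe3 was lost without the second unstimulated library too. In these cells the monocyte markers summed to 356 to 371 CPM without and 763 to 877 CPM with IL-33, and the neutrophil markers to 176 to 198 and 463 to 544 CPM.

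The wild-type and floxed-labelled responses to IL-33 share no library, and across the 33 genes they correlated with Pearson's r of 0.954 and Spearman's rho of 0.834, as a description over genes that are not independent. The sign was the same for 25 of the 33. These values were not computed over all genes, so they do not show whether the agreement is particular to the 33. The 11 genes called in both had the same sign: Asah1, Ctsc, Ctsl, Ctsz, Lyz2 and Mitf higher, and Cd68, Hexa, Laptm5, Scarb2 and Tfeb lower. The test of the difference in response called 1 gene of the 33 (3.03%), Mcoln1, whose response was above that of the wild type. The share was 1.22% of all genes (0.539% above and 0.677% below) and 2.54% of those that reached 10 CPM. Mcoln1 held 74.1, 72.3 and 75.4 CPM in floxed-labelled libraries without cytokine and 71.0, 70.5 and 71.3 CPM with IL-33. These libraries did not overlap, but the step was smaller than in the wild type, where IL-33 libraries lay between 54.8 and 60.6 CPM (log2 0.33 ± 0.069, adjusted p = 0.0221). The call was lost without the first or the third unstimulated wild-type library or the second unstimulated floxed-labelled one (adjusted p = 0.0711, 0.0634 and 0.0564). The next genes were Psap (log2 0.14 ± 0.038, adjusted p = 0.0771) and Tfeb (log2 0.31 ± 0.092, adjusted p = 0.108). Tfeb held 96.4, 102.5 and 106 CPM without and 74.9, 76.3 and 81.1 CPM with IL-33 in floxed-labelled cells, a fall without overlap (log2 -0.39 ± 0.065, adjusted p = 5.3e-05) to a level above each wild-type IL-33 library.

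**Figure D5:**
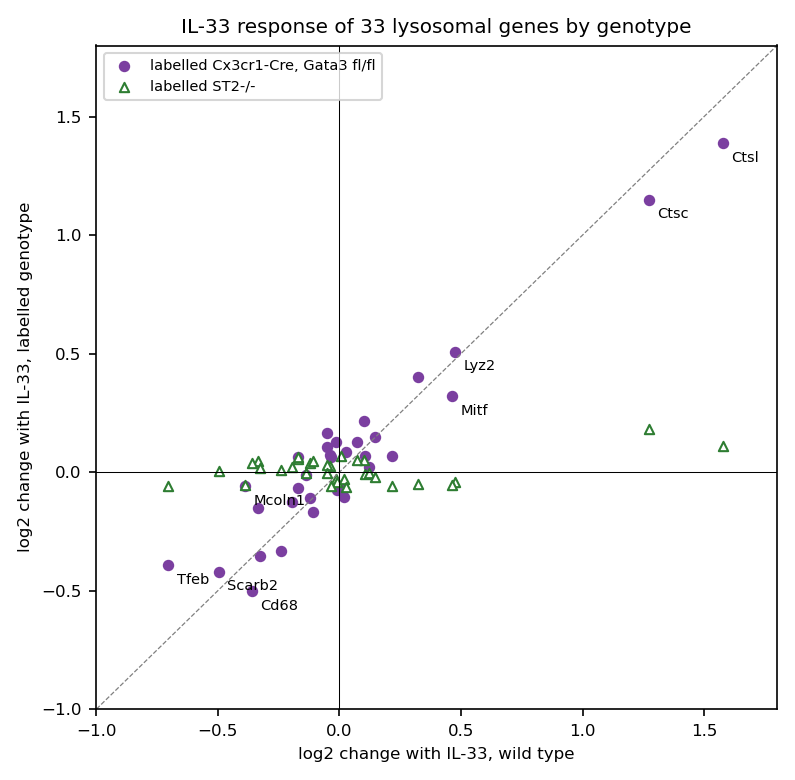
log2 change with IL-33 of each of the 33 genes in wild-type cells (horizontal axis) and in cells of a labelled genotype (vertical axis); the dashed line marks equal changes. The floxed-labelled points (purple) lie along the line from Tfeb to Ctsl, whereas the ST2-/- labelled points (green triangles) lie between -0.063 and 0.18.

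Under IL-33, floxed-labelled and wild-type cells differed in 11.3% of all genes (5.50% higher and 5.85% lower) and 16.9% of those that reached 10 CPM. Of the 33 genes 10 differed (30.3%), 5 higher and 5 lower. The largest were Tfeb (log2 0.35 ± 0.066, adjusted p = 0.000922), Mcoln1 (log2 0.29 ± 0.049, adjusted p = 0.0003) and Gla (log2 0.27 ± 0.061, adjusted p = 0.00515), all higher in floxed-labelled cells. Gla held 225, 206 and 221 CPM there, above the wild-type IL-33 libraries, and 222, 224.5 and 236 CPM without cytokine, above the unstimulated wild-type libraries though not called. Ctsb, Hexa, Lamp2, Lgmn and Man2b1, each lower by at most log2 0.18, were lost without the second wild-type library (adjusted p = 0.221, 0.227, 0.0781, 0.101 and 0.201). All 5 were also lost without the first floxed-labelled library, Hexa without any 1 of the 6, and the others but Lamp2 without the third floxed-labelled one; Ctsb was lost without the first and Man2b1 without the third wild-type library. Upper-quartile scaling lost Ctsb, Hexa and Man2b1 (0.0588, 0.06 and 0.0508). A fit on the groups compared alone lost Ctsb and Hexa (0.076 and 0.0827). Hexa was lost with no filter (0.0962) and without X and Y genes (0.0512). In this comparison 5 neutrophil markers were higher and 1 lower, and 1 macrophage core marker was higher and 4 lower. Of the eosinophil and the osteoclast markers 2 each were higher and 1 lower, and of the monocyte markers 1 and 1. Higher were 2 lymphocyte markers and 1 mast cell and basophil marker, and lower 1 dendritic cell marker. No stromal, erythroid or megakaryocyte marker was called. The part of such cells in these differences was not tested.

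Without cytokine, Neu1 and Glb1 were lower and Mitf higher in both labelled genotypes than in the wild type. Floxed-labelled cells differed from the wild type in 8 of the 33 (24.2%; 9.85% of all genes, 5.60% higher and 4.25% lower, and 15.5% of those that reached 10 CPM), 4 higher (Mitf, Ctsl, Ctss and Cd68) and 4 lower (Neu1, Glb1, Grn and Psap). ST2-/- labelled cells differed in 3 (9.09%), with Mitf higher and Neu1 and Glb1 lower. The share was 1.35% of all genes (0.871% higher and 0.484% lower) and 1.73% of those that reached 10 CPM. Neu1 held 142, 135 and 144 CPM in ST2-/- labelled and 139.8, 126 and 139 CPM in floxed-labelled libraries without cytokine. Both groups lay below every unstimulated wild-type library (log2 -0.25 ± 0.062, adjusted p = 0.0441; log2 -0.31 ± 0.062, adjusted p = 0.00272). Glb1 held 144.5, 140 and 136 CPM and 141, 135 and 138 CPM in the same 2 groups, also below the wild type (log2 -0.22 ± 0.053, adjusted p = 0.042; log2 -0.24 ± 0.053, adjusted p = 0.00548). Mitf held 109.5, 124 and 110.5 CPM and 107.5, 129 and 109 CPM, above every unstimulated wild-type library (log2 0.29 ± 0.068, adjusted p = 0.0336; log2 0.29 ± 0.068, adjusted p = 0.00727). Both comparisons use the same 3 wild-type libraries, so the agreement between them is not a separate result. The ST2-/- calls rested on single libraries: no gene of the 33 was called without the first or the third wild-type library or the second or the third ST2-/- labelled one (adjusted p for Neu1 of 0.23, 0.149, 0.268 and 0.0781). In floxed-labelled cells the calls of Ctsl, Cd68, Grn, Mitf and Psap were lost without the second unstimulated floxed-labelled library (adjusted p = 0.149, 0.0808, 0.0886, 0.0769 and 0.0989). Ctsl and Psap were also lost without the first or the third wild-type or the third floxed-labelled library, Grn without the first and Cd68 without the third wild-type library, and those of Ctss, Glb1 and Neu1 held with each library left out. Psap was lost with no filter (0.154), and Glb1 in ST2-/- labelled cells in a fit on the groups compared alone (0.0779). Of 12 neutrophil markers 8 were higher in unstimulated floxed-labelled than wild-type cells, with sums of 176 to 198 and 125 to 137 CPM. The lymphocyte markers summed to 310 to 319 CPM there and 177 to 204 CPM in the wild type (1 of 7 tested was higher; Ncr1 was at 0 in floxed-labelled cells), most of it Il7r, and the osteoclast markers to 402 to 481 and 256 to 318 CPM (2 of 7 tested were higher; Calcr and Oscar were at 0). Of 4 stromal markers tested 2 were higher, with sums over the 7 listed of 2.50 to 5.15 and 0.875 to 1.85 CPM, with Lepr at 0 in floxed-labelled cells and Col1a1, Col1a2, Col3a1, Lepr and Pdgfra at 0 in the wild type. Of the macrophage core markers 2 were higher and 1 lower, and 1 each of the monocyte, dendritic cell, mast cell and basophil, and eosinophil markers was higher. In unstimulated ST2-/- labelled cells 2 osteoclast markers and 1 dendritic cell marker were higher. Their part in these differences was not tested. With IL-33, Neu1 and Glb1 in floxed-labelled cells held 153, 145 and 156 and 167, 156 and 157.5 CPM, and in ST2-/- labelled cells 147, 127 and 146 and 147, 135 and 154 CPM. In floxed-labelled cells both genes were higher with IL-33 than without, with no overlap, by log2 0.16 ± 0.062 and 0.22 ± 0.053; in ST2-/- labelled cells the groups overlapped.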

How the data were processed

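RNA of bone marrow-derived macrophages (21 libraries, 7 groups of 3) was sequenced as paired reads of 150 bases, per the labels' protocols. The values are read counts per gene as deposited by the authors; the tools listed are DESeq2 1.22.2, HTSeq 0.6.1 and HISAT2 2.0.5, with the build GRCm38 (mm10), per the submitters' processing notes, while the annotation and strand setting are not given in the sources used here. Of 47069 gene identifiers, 46574 matched GENCODE release M21 and 495 did not; its gene models gave positions and exon lengths, and RefSeq (GRCm38.p6) the promoter windows.

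Counts were fitted with edgeR 4.0.16 (R 4.3.3): low counts were removed with filterByExpr, leaving 14473 genes, libraries were scaled by TMM, and 1 quasi-likelihood model over the 7 groups gave each comparison. P-values were adjusted over all genes tested by the Benjamini-Hochberg method and called under 0.05. Errors after ± are standard errors beside a log2 change and SDs (n = 3) otherwise. The standard errors were derived from the test, as the absolute log2 change divided by the square root of its F statistic. The fit had 14 residual degrees of freedom, and expression varied between libraries by 8.60% beyond counting error. The fit was tested on simulated counts first.

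The 33 genes and all gene lists were chosen with earlier results of these data known. By rule, values in every library are given for Tfeb, Tfe3 and Mitf, for the largest called change of each role with either cytokine and for the 3 largest in each other comparison; other lists are named by up to 2 genes each way per cytokine. Further genes were chosen after their values were seen. Alternatives were upper-quartile scaling, DESeq2 1.42.0, limma-voom (limma 3.58.1), no filter, a filter of 10 CPM in 3 libraries, fits on the groups compared alone, a replicate block, no X and Y genes, and each library left out in turn. Sums or counts of the marker lists are left out for some comparisons, and the erythroid and megakaryocyte list is not reported whole.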

Additional observations from a re-analysis of the deposited data

Results flagged for a closer look

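The responses to IL-33 differed between ST2-/- labelled and wild-type cells, by the test of the difference in edgeR, for 14 of the 33 genes. Below the wild-type response were Ctsl (-1.47), Ctsc (-1.09), Lyz2 (-0.52), Mitf (-0.52), Ctsz (-0.37) and Asah1 (-0.17), on the log2 scale. Above it were Tfeb (0.64), Scarb2 (0.50), Cd68 (0.40), Gaa (0.38), Laptm5 (0.35), Mcoln1 (0.33), Hexa (0.25) and Grn (0.21). Of these 14 calls 12 held under every alternative and with each library left out, and those of Asah1 and Grn did not. Between floxed-labelled and wild-type cells the response of Mcoln1 differed by log2 0.33 (adjusted p = 0.0221), a call lost when any of 3 single libraries was left out.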

How the results depend on the processing

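No result of the 33 genes that was called in the main fit or in an alternative run had the opposite sign in the other. Sign changes of results called in neither were not counted. Most results kept their side of the threshold. With 1 library left out, 126 results fell below it, 32 rose past it and 2416 kept their side. The difference in IL-33 response between floxed-labelled and wild-type cells, 1 of the 33 and 176 of all genes, became 3 and 384 with DESeq2, 2 and 555 with no filter, and 2 and 355 with a replicate block; with the 10 CPM filter 2 of the 33 were called. With single libraries left out it ranged from 0 to 1 and from 53 to 266, the lowest gene count being without the second wild-type IL-33 library. ST2-/- labelled against wild-type cells without cytokine, 3 of the 33 and 196 genes, became 5 and 438 with DESeq2, 5 and 875 with no filter, and 5 and 590 with the block; left-out libraries gave 0 to 4 and 57 to 215. Floxed-labelled against wild-type cells ranged from 3 to 10 of the 33 and 660 to 1231 genes without cytokine, and from 5 to 9 and 1003 to 1478 under IL-33. In ST2-/- labelled cells, no filter called 70 genes with IL-33. The cause of these moves was not tested. With group means removed, same-numbered libraries of different groups correlated at -0.0399 to 0.11 in 63 pairs (median 0.0257), 2 of them over 0.1. Those with different numbers correlated at -0.116 to 0.054 in 126 pairs (median -0.013). Of 21 libraries 17 correlated best with a library of their own number. Libraries of the same number were thus slightly more alike, and the main fit did not use the numbers. The sources used here do not say that the numbers pair libraries. Leaving out X and Y genes removed Gla, Lamp2 and Tfe3.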
